A study of Mus musculus with 32 samples.

Results

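The genes described here are the 65 genes of any type in a stretch of mouse chromosome 4 that runs from the start of 1110017D15Rik at base 41505009 to the start of Vcp at base 42979963 (GRCm38, GENCODE M21), of 51912 gene identifiers in the deposited table. The stretch was chosen by its expression difference between the animal facilities in these libraries, so values from Bern and from the Crick are a description: no p-value is given, and counts of calls stand only beside the share called over all genes. The mice were C57BL/6, a substrain was not labelled, and they were kept specific pathogen free at the University of Bern or at the Francis Crick Institute. All had received AAV9-CaMKII-EGFPKASH intravenously 5 weeks earlier, a virus that marks the nuclear envelope of cells using the CaMKII promoter with EGFP. Nuclei of the longitudinal muscle and myenteric plexus were sorted into EGFP-positive (neuronal) and EGFP-negative (non-neuronal) fractions from colon and small intestine (SI), which gave 8 groups of 4 libraries: neuronal colon, neuronal SI, non-neuronal colon and non-neuronal SI, each from Bern and from the Crick. No label says that the 4 libraries of a group came from separate animals, so p-values measure the spread between these libraries only.

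The stretch is known in the mouse for duplicated genes. Copies of the chemokine genes Ccl19, Ccl21 and Ccl27 and of the interleukin 11 receptor alpha chain lie between single-copy neighbours such as Cntfr, Galt, Phf24 and Vcp. CCL19 and CCL21 attract cells that carry the receptor CCR7, and CCL21 is made by lymphatic endothelium. CCL27 binds CCR10. CNTFR is the ligand-binding chain of the receptor for ciliary neurotrophic factor.

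Of the 65 members, 41 were annotated as protein coding, 9 as unprocessed pseudogenes, 1 as a transcribed unprocessed pseudogene, 8 as antisense RNAs, 3 as loci of the TEC type, 2 as processed transcripts and 1 as a lincRNA. In all, 61 members were above 0 in at least 1 library, 32 reached a mean of 5 CPM in a group, and 14 stayed below 1 CPM in every group. The 4 at 0 in all 32 libraries were Ccl19-ps3, Gm21980, Gm21953 and Gm21586, of which Gm21980 was named after its values were seen. CPM is the expected count scaled to the library total, with no length correction, so levels are compared between groups and not between genes.

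Comparison of all transcripts of the members put 43 members in 8 families, and 22 in none. A link between 2 members needed 95% identity or more over at least 200 bases and 50% of the shorter transcript. Fam219a and Fam219aos, whose exons overlap in the genome, were not linked. The largest family held 15 members around Gm13302, and there were 6 of the Ccl27 type, 5 of the Ccl21 type, 5 of the Ccl19 type, 4 of the Fam205a type, 3 of the Il11ra type, 3 around Gm13307 and 2 around Gm21955. A read of 75 bases can be placed on one member only where its sequence is unique. The median share of 75-base windows found in no other transcript was 16.1% for members of a family, against 100.0% for members of none, and 15 members had no unique window. The counting tool shares reads among such copies, so family sums are given beside single members.

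The first set shows how little separates 3 copies of the Gm13302 family, each over 120 bases of its transcript, 5′ to 3′, from GENCODE M21 (GRCm38, plus strand). Gm13302 (chr4:41893388-41895236) and Gm5859 (chr4:42236859-42239182) are unprocessed pseudogenes, and Gm13301 (chr4:42216908-42235604) is a transcribed one. Capitals mark the 6 positions at which the 3 copies are not all alike.
Gm13302: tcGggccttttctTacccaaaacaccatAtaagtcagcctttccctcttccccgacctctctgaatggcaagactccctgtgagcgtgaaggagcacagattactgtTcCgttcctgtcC
Gm5859: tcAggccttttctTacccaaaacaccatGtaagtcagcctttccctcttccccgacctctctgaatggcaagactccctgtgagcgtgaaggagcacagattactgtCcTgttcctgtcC
Gm13301: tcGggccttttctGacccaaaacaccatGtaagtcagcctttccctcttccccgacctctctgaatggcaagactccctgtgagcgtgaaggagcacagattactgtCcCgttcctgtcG
The second set is from Gm10600 (chr4:42240639-42242685, annotated as protein coding) and Gm17167 (chr4:42206998-42235313, a processed transcript), both on the plus strand. Capitals mark the 2 positions that differ.
Gm10600: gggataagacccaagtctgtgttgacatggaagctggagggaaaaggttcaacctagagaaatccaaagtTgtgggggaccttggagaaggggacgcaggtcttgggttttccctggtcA
Gm17167: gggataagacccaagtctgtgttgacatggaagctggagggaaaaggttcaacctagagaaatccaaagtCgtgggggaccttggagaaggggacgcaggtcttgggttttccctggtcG
Of the 75-base windows, 22.4% were unique in Gm13302, 16.8% in Gm5859, 16.1% in Gm13301, 11.4% in Gm10600 and 37.7% in Gm17167. Gm17167 and Gm13301 also share 1312 exon bases in the genome, so their reads cannot be told apart there.

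In 5 of the 65 members every Crick library was above every Bern library: Gm13302, Gm17167, Gm13301, Gm5859 and Gm10600. Over the 47248 genes above 0 in the table, 8 had that pattern (0.0169%), and 16 had every Bern library above every Crick library (0.0339%), none of them a member. The last 4 of the 5 members lie side by side, and with Gm17081 between them they are called the core block below, a grouping made after the values were seen. Gm17167 was likewise named after its values were seen.

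Gm10600 was at 0 in all 16 Bern libraries, and in the Crick libraries it ran from 3.08 to 18.2 CPM with a median of 6.25. Over the 16 libraries of each facility, the floor of 3 counts puts the counts assigned to it at least 138-fold lower in Bern. That floor does not cover reads assigned to other copies. Only 1 other gene of the table, Gm9105, was at 0 in all 16 Bern libraries and above 0 in all 16 Crick libraries.

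Gm13301 was at most 0.688 CPM in the Bern libraries, with a median of 0, against 15.5 to 59.1 CPM in the Crick libraries with a median of 33.9. In neuronal nuclei of the SI it was at 0 in all 4 Bern libraries and at 32.2, 42.1, 58.9 and 59.1 CPM in the Crick libraries. By the same floor the counts assigned to it were at least 241-fold lower in Bern, with reads shared with Gm17167 not covered. The sum over the Gm13302 family had a log2 fold of -3.58 ± 0.36 there (SE). For Gm13301 the facilities did not overlap in any sort or segment.

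Gm5859 was at 0 in all 8 Bern colon libraries of both sorts, against 7.38 to 38.0 CPM in the 8 Crick colon libraries. In Bern non-neuronal nuclei of the SI, by contrast, it had 1.48, 1.97, 4.20 and 7.25 CPM, against 12.1, 13.9, 19.4 and 23.4 CPM in the Crick libraries. The highest Bern library and the lowest Crick library of all were close, at 7.25 and 7.38 CPM.

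Gm17167 was present at both facilities. It averaged 8.51 ± 4.67 CPM in Bern and 58.2 ± 15.2 CPM in Crick libraries (SD, n = 16 each). The log2 fold of Bern over Crick was -2.59 ± 0.42 in neuronal colon, -2.69 ± 0.42 in neuronal SI, -3.51 ± 0.67 in non-neuronal colon and -2.39 ± 0.64 in non-neuronal SI (SE).

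Gm13302 had 0 counts in 15 of 16 Bern libraries and 0.264 CPM in the other, against 0.622 to 6.91 CPM in the Crick libraries. In the neuronal nuclei all 8 Bern libraries were at 0, against 0.622, 1.57, 1.60 and 2.70 CPM in the Crick colon libraries and 1.20, 1.81, 4.61 and 4.62 CPM in the Crick SI libraries. Gm17081 overlapped between the facilities, with at most 1.94 CPM in Bern and at least 0.507 CPM in the Crick libraries.

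**Figure D1:**
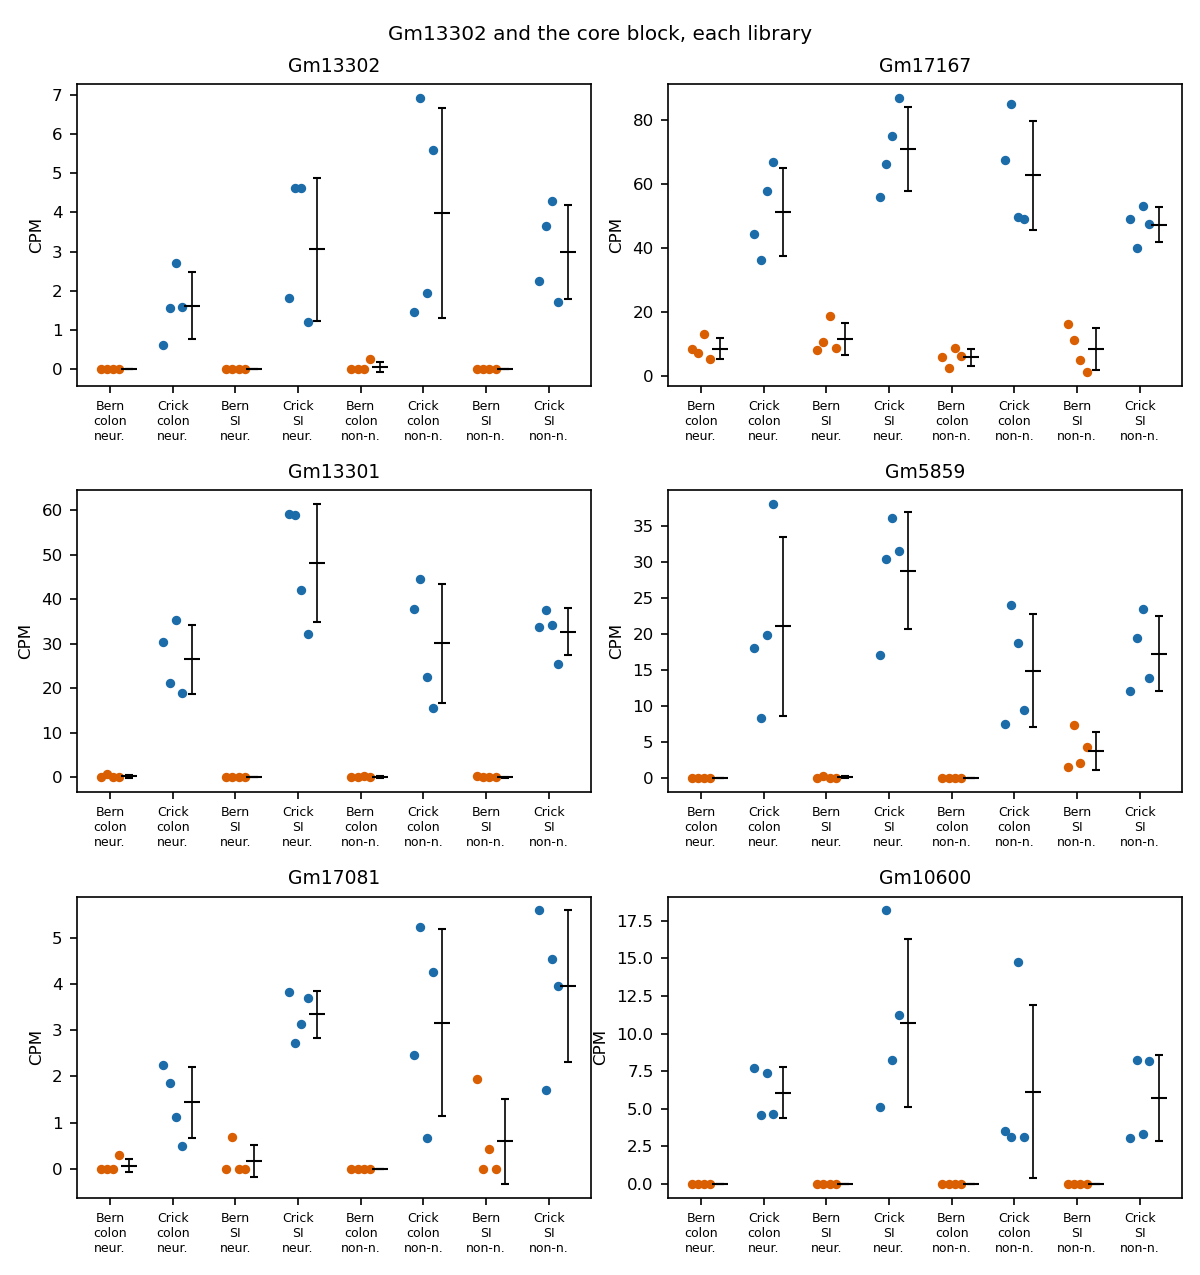
Level in CPM (linear axis) of Gm13302 and the 5 genes of the core block in each library, with 4 points a group and the mean and SD beside them, Bern in orange and Crick in blue. Gm10600 is at 0 in all 16 Bern libraries and Gm17167 is present in all 32.

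The sum over the 15 members of the Gm13302 family does not depend on how reads are split among them. The core block made up a median of 72.6% of that sum in Bern libraries (14.9% to 93.6%) and 86.3% in Crick libraries (76.0% to 90.9%). Summed over the core block, the level was 9.75 ± 5.22 CPM in Bern and 123 ± 31.2 CPM in Crick libraries (SD, n = 16 each), with no overlap. The log2 fold of the family sum was -3.56 ± 0.36 in neuronal colon, -3.58 ± 0.36 in neuronal SI, -3.48 ± 0.50 in non-neuronal colon and -2.22 ± 0.47 in non-neuronal SI (SE). The 10 members outside the core block summed to 7.08 ± 10.4 CPM in Bern and 22.4 ± 6.29 CPM in Crick libraries (SD, n = 16 each). Here the ranges overlapped, since 1 Bern non-neuronal SI library reached 42.1 CPM and 1 Bern non-neuronal colon library 19.9 CPM. The lowest Crick library had 9.78 CPM.

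**Figure D2:**
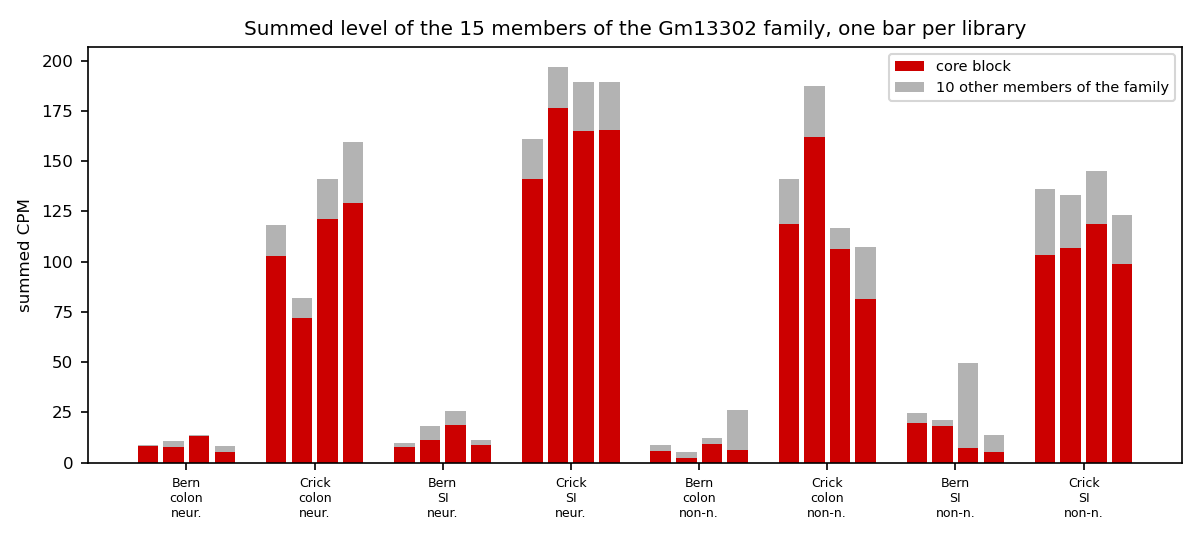
Summed CPM (linear axis) of the 15 members of the Gm13302 family, 1 bar a library, with the 5 genes of the core block in red and the 10 others in grey. The core block sums to at most 19.8 CPM in Bern libraries and to between 72.1 and 177 CPM in Crick libraries.

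The fold of Bern over Crick was below 0 in 16 of 18 tested family members in neuronal colon, 13 of 18 in neuronal SI, 16 of 25 in non-neuronal colon and 21 of 25 in non-neuronal SI. Among tested members of no family it was below 0 in 6 of 13, 6 of 13, 4 of 12 and 7 of 12 in the same order. Over all genes tested the median log2 fold was 0.024, 0.030, 0.004 and -0.031. In the flanks of 1.5 Mb, 0 to 1 of 19 to 24 tested genes before the stretch and 1 to 2 of 30 to 36 after it were called in a facility comparison. With edgeR's quasi-likelihood test at an adjusted p of 0.05, 6 of 31 tested members were called in neuronal colon, where 3.09% of all genes tested were called. Of these 1 was higher in Bern (background 1.89%) and 5 were lower (1.19%). In neuronal SI 6 of 31 were called (background 0.683%), 2 higher (0.568%) and 4 lower (0.115%). In non-neuronal colon 4 of 37 were called (1.07%), 0 higher (0.59%) and 4 lower (0.485%). In non-neuronal SI 8 of 37 were called (4.44%), 2 higher (1.84%) and 6 lower (2.6%). The choice of the stretch used this contrast, and the filter kept some copies through their Crick groups only. Copies that share reads were also counted one by one. Nothing is therefore read from the counts of folds below 0 or of calls. Earlier results set 6 libraries apart (replicates 1 and 2 of Bern non-neuronal colon, 1 of Bern non-neuronal SI, 3 of Crick non-neuronal colon, 2 of Crick non-neuronal SI and 2 of Crick neuronal SI), none of them from neuronal colon. Without them 0 of the 4 calls in non-neuronal colon, 2 of the 8 in non-neuronal SI and 4 of the 6 in neuronal SI were left, and Ccl27a and Phf24 were lost in neuronal SI.

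**Figure D3:**
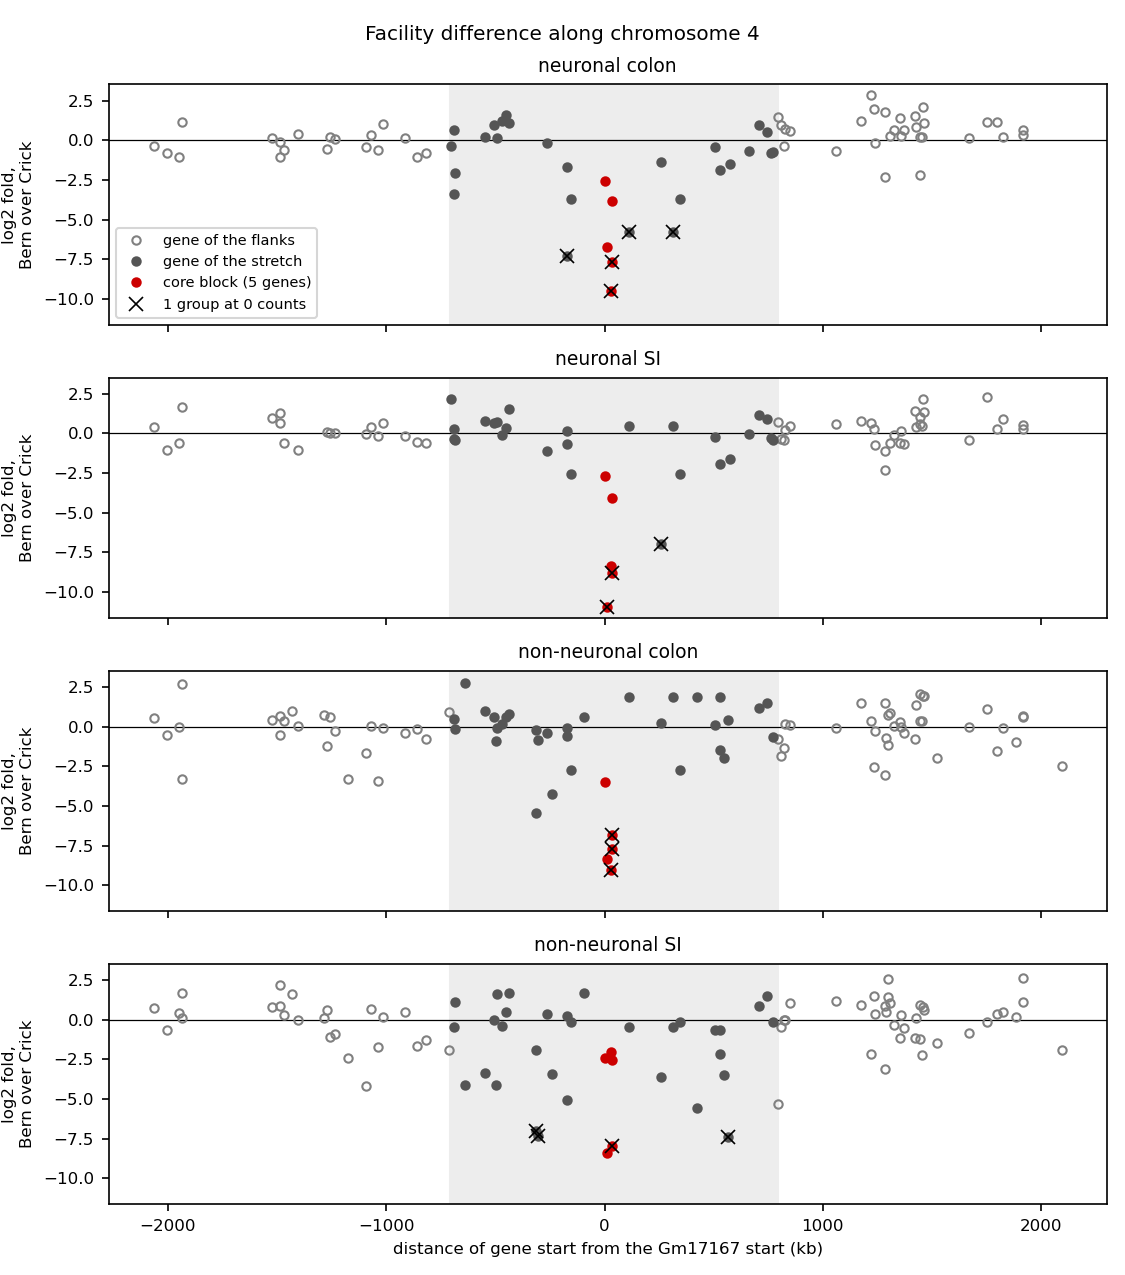
Fitted log2 fold of Bern over Crick against the distance of each gene's start from that of Gm17167 (kb), in the 4 combinations of sort and segment, with the stretch shaded. Crosses mark folds in which 1 group was at 0 counts, whose size depends on the prior count of the fit. The red points of the core block lie below 0 in all 4 panels.

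Facility also went with depth. Totals were 2394513 to 4618395 counts in Bern and 3788206 to 8350887 in Crick libraries, genes above 0 numbered 15708 to 22533 in Bern and 25789 to 35260 in Crick libraries, and members above 0 numbered 20 to 36 in Bern and 42 to 51 in Crick libraries. Mitochondrial genes took 0.423% to 12.9% of counts in Bern and 0.826% to 23.6% in Crick libraries. The part of depth in the facility difference was not tested. Facility, and whatever else differed between the 2 sites, cannot be told apart. At the edges of the window, 1110017D15Rik, just inside, averaged 2.75 ± 7.12 CPM in Bern and 1.54 ± 1.50 CPM in Crick libraries, and AI464131, just outside, 3.58 ± 5.53 and 4.01 ± 3.72 CPM in the same order. At the other edge Vcp, inside, averaged 46.7 ± 26.6 CPM in Bern and 66.5 ± 18.8 CPM in Crick libraries, and Fancg, outside, 10.7 ± 13.9 and 8.16 ± 5.75 CPM (SD, n = 16 each).

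Some members were higher in Bern. Ccl27a had 90.4, 132, 146 and 155 CPM in Bern neuronal SI, against 31.9, 42.7, 43.9 and 66.7 CPM in Crick neuronal SI, with a log2 fold of 1.52 ± 0.33 (SE). In non-neuronal SI its log2 fold was 1.70 ± 0.47, though 1 Bern library, at 26.3 CPM, lay within the Crick range. Phf24, which encodes a neuronal protein that binds inhibitory G-protein subunits, had 190, 245, 281 and 286 CPM in Bern neuronal colon, against 91.8, 117, 136 and 160 CPM in Crick neuronal colon, a log2 fold of 0.99 ± 0.26. The fold in neuronal SI was 1.17 ± 0.27. The sum of 10 pan-neuronal markers went the same way, at 3730 to 5392 CPM in Bern and 1745 to 2930 CPM in Crick neuronal libraries, and its part in the Phf24 difference was not tested. Dnajb5, a co-chaperone of the HSP40 group, averaged 176 ± 106 CPM in Bern and 65.4 ± 12.4 CPM in Crick non-neuronal SI (SD, n = 4 each), a log2 fold of 1.51 ± 0.40.

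The remaining members called in 1 facility comparison each were at low levels. Gm21093, of the Gm13302 family with no unique window, had at most 0.128 CPM in Bern neuronal colon, against 1.77 to 10.6 CPM in the Crick libraries. Gm2564, of the Ccl19 family, had at most 0.324 CPM in Bern non-neuronal SI, against 3.91 to 5.84 CPM in the Crick libraries. In that comparison Ccl21a was at 0 in all 4 Bern libraries and had 1.08, 2.76, 4.31 and 10.3 CPM in the Crick libraries. Its copy Gm13304 had up to 4.77 CPM in the Bern and up to 3.02 CPM in the Crick libraries. The sum of the 5 Ccl21 copies had a log2 fold of -1.87 ± 0.76 there, and that of the 5 Ccl19 copies -3.63 ± 1.23 (SE). Neither sum was called.

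Neuronal and non-neuronal nuclei were compared over all 32 libraries, a contrast the choice of the stretch did not use. Of 46 members tested, 13 passed (28.3%), against 43.5% of all genes tested. In neuronal nuclei 8 were higher (background 21.9%) and 5 lower (21.6%). All 10 pan-neuronal markers were higher in the neuronal nuclei, as their label says.

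Phf24 had the lowest adjusted p of the members. It averaged 154 ± 74.5 CPM in the 16 neuronal libraries, against 15.7 ± 12.2 CPM in the 16 non-neuronal ones (SD), a log2 fold of 3.20 ± 0.26 with an adjusted p of 1.18e-12 by edgeR. Every neuronal library, from 55.2 CPM upwards, was above every non-neuronal library, of which the highest had 42.5 CPM. The sum of the pan-neuronal markers in non-neuronal colon was 782 to 1764 CPM in Bern and 165 to 334 CPM in Crick libraries, where Phf24 had 15.6 to 42.5 and 6.23 to 18.1 CPM in the same order, and its part in these levels was not tested.

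Cntfr was higher in neuronal nuclei by a log2 fold of 2.23 ± 0.53 (edgeR adjusted p = 0.000594), with the values by segment given below. In colon the sorts overlapped at both facilities. In SI every neuronal library, from 6.11 CPM upwards, was above every non-neuronal library, of which the highest had 4.42 CPM. Fam219a averaged 42.2 ± 18.9 CPM in the 16 neuronal libraries, against 11.3 ± 9.07 CPM in the 16 non-neuronal ones, a log2 fold of 1.82 ± 0.33 (edgeR adjusted p = 1.89e-05). It shares 469 exon bases with its antisense partner Fam219aos, and the kit does not mark strand. Galt, an enzyme of galactose breakdown, averaged 59.8 ± 45.2 CPM in the 16 neuronal libraries, against 25.8 ± 17.9 CPM in the 16 non-neuronal ones, a log2 fold of 1.03 ± 0.29 (edgeR adjusted p = 0.00391). Reads from part of its exons cannot be assigned to it alone. Ccl27a averaged 85.5 ± 42.3 CPM in the 16 neuronal libraries, against 49.9 ± 41.9 CPM in the 16 non-neuronal ones, a log2 fold of 0.83 ± 0.20 (edgeR adjusted p = 0.000874), and the sum of the 6 Ccl27 copies gave 0.63 ± 0.19 (edgeR adjusted p = 0.00696).

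Low-level members passed as well. Fam205c averaged 1.71 ± 1.67 CPM in the 16 neuronal libraries, against 0.361 ± 0.479 CPM in the 16 non-neuronal ones, a log2 fold of 2.45 ± 0.70 (edgeR adjusted p = 0.00406). 1110017D15Rik averaged 3.98 ± 6.79 and 0.307 ± 0.687 CPM in the same order (edgeR adjusted p = 6.36e-05), with 1 neuronal SI library from Bern at 27.9 CPM. Gm2163, Gm12395 and Gm2564 were lower in neuronal nuclei, each with 1 group at 0, and so were Gm13307 (log2 fold -3.26 ± 0.69, edgeR adjusted p = 0.000155) and Gm13304 (-4.48 ± 0.79, edgeR adjusted p = 1.29e-05), which had no unique 75-base window. Fam219aos was higher, with 1 group at 0 (edgeR adjusted p = 0.0359), and lost its call with DESeq2 (adjusted p = 0.0667), without the 6 libraries and without any one of 7 libraries. Leaving out replicate 1 of Bern non-neuronal SI for Gm2564, or replicate 4 of Crick non-neuronal SI for Gm13304, left all remaining libraries of that group at 0 and ended those calls. Gm13307 and Fam219aos were named after their values were seen.

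Il11ra1, which encodes the receptor of interleukin 11, averaged 37.3 ± 14.3 CPM in the 16 neuronal libraries, against 27.8 ± 15.2 CPM in the 16 non-neuronal ones. For the sum of the 3 Il11ra copies the log2 fold was 0.31 ± 0.23 (edgeR adjusted p = 0.283), and its other copies Gm13305 and Il11ra2 were at most 1.94 and 1.29 CPM in any group mean. Vcp, an ATPase that extracts proteins for degradation, averaged 64.7 ± 22.5 CPM in the 16 neuronal libraries, against 48.5 ± 24.9 CPM in the 16 non-neuronal ones (SD, n = 16 each). The family of Gm13302 had a log2 fold of -0.25 ± 0.20 between the sorts (edgeR adjusted p = 0.334).

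**Figure D4:**
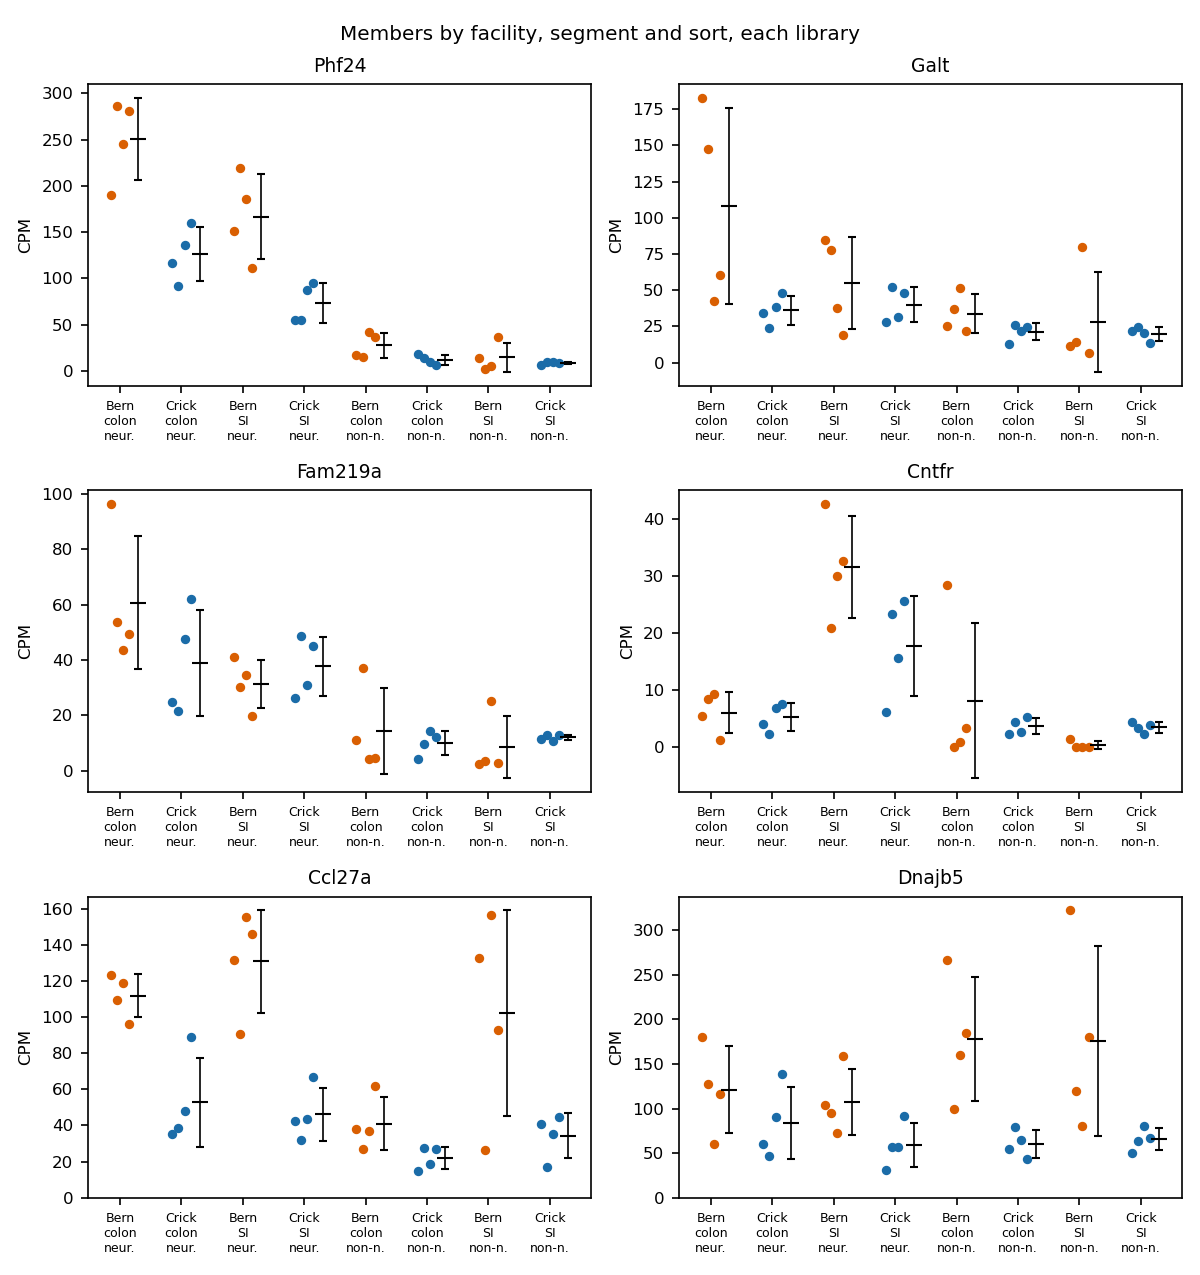
Level in CPM (linear axis) of 6 members in each library by group, with the mean and SD beside the 4 points, Bern in orange and Crick in blue. Phf24 is at 55.2 CPM or more in all neuronal libraries and at 42.5 CPM or less in all non-neuronal ones.

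Between the segments, 1 of 31 tested members passed in neuronal nuclei (3.23%, against 5.51% of all genes), 0 higher in colon (background 1.97%) and 1 lower (3.54%). In non-neuronal nuclei 4 of 37 passed (10.8%, against 9.32%), 2 higher in colon (5.79%), Ccl21a and Gm13304, and 2 lower (3.54%), Ccl27a and Gm5859. In neuronal nuclei the member was Cntfr, lower in colon. It had 1.11, 5.37, 8.39 and 9.23 CPM in Bern colon and 2.19, 4.08, 6.86 and 7.47 CPM in Crick colon, against 20.95, 30.1, 32.7 and 42.7 CPM in Bern SI and 6.11, 15.7, 23.3 and 25.7 CPM in Crick SI. The Bern segments did not overlap and the Crick segments did. The log2 fold of colon over SI was -2.30 ± 0.46 (SE), with an edgeR adjusted p of 0.00321. The segment difference of Cntfr also differed between the sorts, with an interaction of -4.34 ± 1.05 (log2, edgeR adjusted p = 0.00953). Markers of interstitial cells of Cajal, which pace gut contractions, moved with Cntfr in the neuronal nuclei, all 4 being lower in colon. Their sum was 346 to 504 CPM in Bern and 268 to 405 CPM in Crick neuronal colon, against 702 to 2252 CPM in Bern and 1155 to 1848 CPM in Crick neuronal SI. Ano1 was at most 8.79 CPM and Prkcq at most 1.61 CPM in neuronal colon, while Etv1 was at least 242 CPM there. Of 8 mitochondrially encoded genes 6 were lower in neuronal colon, as were 3 of 8 smooth muscle markers and 2 of 4 tested lymphatic markers, and 0 of 10 pan-neuronal markers were called. The part of these in the Cntfr difference was not tested. In the non-neuronal nuclei 1 Bern colon library had 28.5 CPM of Cntfr, while the 3 others had at most 3.27 CPM. Bern non-neuronal SI had 1.29 CPM in replicate 1 and 0 in its other libraries. The Crick non-neuronal libraries overlapped between the segments, with 2.32 to 5.27 CPM in colon and 2.19 to 4.42 CPM in SI. Of 46 members tested, 3 passed for the interaction (6.52%, against 6.48% of all genes), 0 above 0 (background 1.09%) and 3 below (5.39%), the others being Ccl21a and Gm13304. Over all genes the median of the interaction was -0.22.

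Receptors, ligands and signalling partners of the members' products lie elsewhere in the genome. Of 16 listed, 14 were tested between the sorts, 1 was higher in neuronal nuclei (21.9% of all genes) and 9 were lower (21.6%). Between the segments 2 of 12 were lower in neuronal colon (3.54% of all genes). In non-neuronal colon 1 of 13 was higher (5.79%) and 1 lower (3.54%). Il6st, the shared signalling chain gp130, was lower in neuronal nuclei by a log2 fold of -2.27 ± 0.18 (edgeR adjusted p = 7.14e-13), and Lifr by -1.34 ± 0.28 (edgeR adjusted p = 0.000135). Clcf1 was lower in colon than in SI in both sorts, by a log2 fold of -3.55 ± 0.81 in neuronal nuclei (edgeR adjusted p = 0.00904) and -2.02 ± 0.46 in non-neuronal nuclei (edgeR adjusted p = 0.0083).

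In non-neuronal nuclei Ccl27a was lower in colon (log2 fold -1.25 ± 0.33, edgeR adjusted p = 0.0202), as was Gm5859, which was at 0 in Bern colon (edgeR adjusted p = 0.0041). In the Crick non-neuronal libraries Gm5859 overlapped between the segments, with 7.38 to 24.0 CPM in colon and 12.1 to 23.4 CPM in SI. The Ccl27a call was lost without the 6 libraries that stand apart (edgeR adjusted p = 0.195) and, narrowly, without any one of 4 Crick libraries (edgeR adjusted p = 0.0503 to 0.0624).

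The sum of the 5 Ccl21 copies was high in non-neuronal colon, with means of 370 CPM in Bern and 262 CPM in Crick libraries. In neuronal colon the means were 1.56 and 1.83 CPM. Not every copy was high, since Ccl21b and Gm10591 had at most 5.76 CPM and Gm21541 at most 22.7 CPM in any library. Ccl21a (chr4:42772860-42773993, minus strand) and Ccl21b (chr4:42255767-42256432, plus strand) differ at 2 of 402 coding bases, and the coding bases of Gm10591, Gm13304 and Gm21541 are identical to those of Ccl21b. Both differences fall in this stretch of 120 transcript bases from GENCODE M21 (GRCm38), in capitals.
Ccl21a: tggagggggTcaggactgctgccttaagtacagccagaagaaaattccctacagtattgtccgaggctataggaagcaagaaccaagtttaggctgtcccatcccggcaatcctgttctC
Ccl21b: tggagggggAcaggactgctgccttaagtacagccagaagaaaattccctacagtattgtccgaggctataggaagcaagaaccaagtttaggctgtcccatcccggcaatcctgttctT
Ccl21b had no unique 75-base window and Ccl21a had 38.7%. Ccl21a had 139, 289, 311 and 322 CPM in Bern non-neuronal colon and 70.3, 106, 271 and 312 CPM in Crick non-neuronal colon, and at most 10.3 CPM in any of the other 24 libraries. Gm13304, another copy, had 45.0 to 159 CPM in Bern and 0.0289 to 121 CPM in Crick non-neuronal colon. Summed over the 5 copies, the log2 fold of colon over SI in non-neuronal nuclei was 5.79 ± 0.59 (SE), with an edgeR adjusted p of 1.86e-06. The sum was lower in neuronal than in non-neuronal nuclei by a log2 fold of -4.86 ± 0.47 (edgeR adjusted p = 7.2e-11), and its segment difference differed between the sorts, with an interaction of -5.49 ± 1.06 (edgeR adjusted p = 0.0013).

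Between the segments of the non-neuronal nuclei, markers of lymphatic endothelium moved with the sum of the Ccl21 copies. Between the facilities in non-neuronal SI the picture was mixed. There Bern replicates 1, 3 and 4 had sums of the 6 markers of 118, 139 and 146 CPM, and replicate 2 had 13.3 CPM. Ccl21a was at 0 in all of them. The sum of the 5 Ccl21 copies was 0 in replicates 1 and 2, 3.90 CPM in replicate 3 and 4.98 CPM in replicate 4. The Crick libraries had marker sums of 41.0 to 89.3 CPM, with Ccl21a at 1.08 to 10.3 CPM. Their sums of the Ccl21 copies were 2.76 to 21.9 CPM. The median log2 fold of Bern over Crick of the 6 markers was -1.43, although the marker sum was higher in Bern replicates 1, 3 and 4. Of 6 markers, 5 were higher in non-neuronal colon than SI (Lyve1, Prox1, Flt4, Mmrn1 and Reln), and Pdpn was not called (edgeR adjusted p = 0.969). Their sum was 699 to 1829 CPM in Bern and 585 to 1777 CPM in Crick non-neuronal colon, against 13.3 to 146 CPM in Bern and 41.0 to 89.3 CPM in Crick non-neuronal SI. Other lists went the same way: 4 of 5 epithelial, 3 of 5 blood endothelial and 4 of 10 pan-neuronal markers were higher in non-neuronal colon, as was 1 of 6 macrophage markers. Of 8 mitochondrially encoded genes 6 were lower there, as were 3 of 5 fibroblast and 2 of 8 smooth muscle markers. The epithelial sum was 1652 to 12213 CPM in Bern and 2414 to 9097 CPM in Crick non-neuronal colon, against 301 to 744 CPM in Bern and 128 to 915 CPM in Crick non-neuronal SI. The part of these markers in the Ccl21 difference was not tested. In bulk nuclei, fewer cells of a type and less RNA per cell cannot be told apart.

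**Figure D5:**
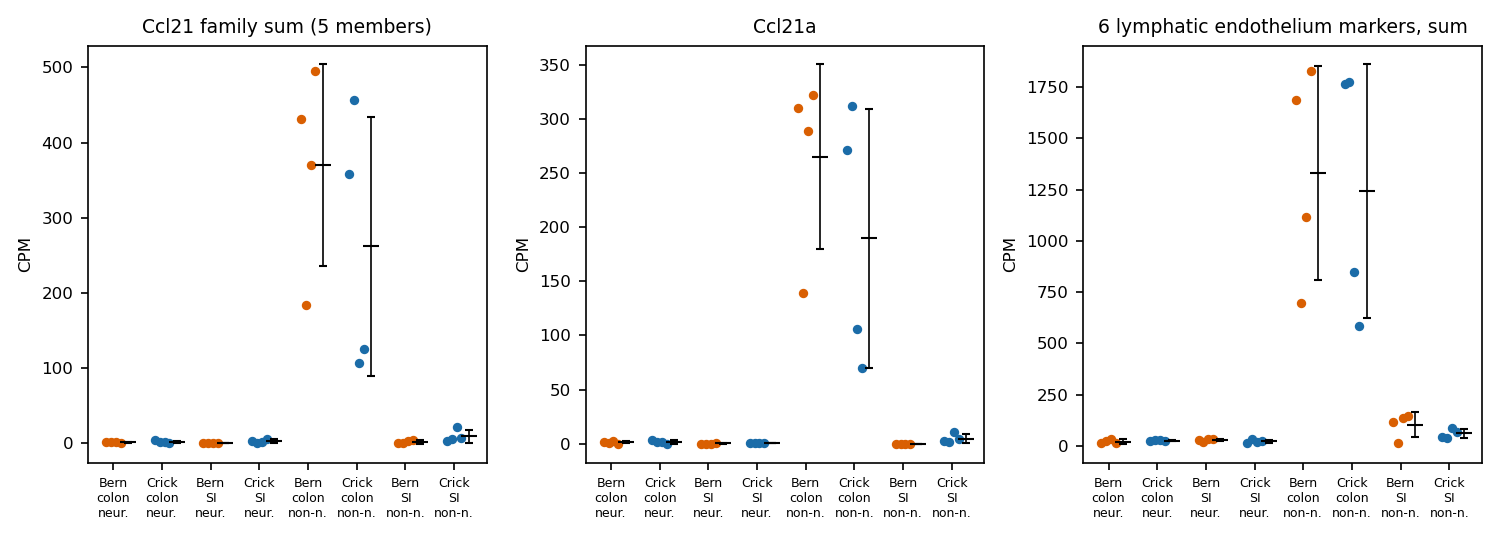
Level in CPM (linear axis) of the sum of 5 Ccl21 copies, of Ccl21a alone and of the sum of 6 lymphatic endothelium markers in each library, with mean and SD beside the 4 points, Bern in orange and Crick in blue. All 3 are high in the 8 non-neuronal colon libraries.

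The other chemokine and Fam205 copies were low. The 5 Ccl19 copies summed to at most 14.8 CPM in any library and were lower in neuronal nuclei (log2 fold -2.46 ± 0.63, edgeR adjusted p = 0.00158). The 4 Fam205a copies summed to at most 36.1 CPM in any library, with a log2 fold between the sorts of -1.11 ± 0.53 (edgeR adjusted p = 0.0917). Ccr7, which encodes the receptor of both chemokines, was at 0 in 3 of the 4 Bern groups and at most 1.31 CPM in the other, and reached 23.6 CPM in 1 Crick non-neuronal colon library, with at most 5.63 CPM in the other Crick groups. Gm13304, Gm10591, Gm3892, Gm10593, Fam205a2 and Fam205a3 had no unique 75-base window, Fam205a4 had 0.049% and Gm21541 3.02%, so their values are uncertain one by one. Of the windows of Gm20878 52.7% were unique, and of Fam205a1 39.7%. Fam205a2 and Fam205a3 had identical values in every library, and so did Gm3892 and Gm10593. Gm37530 and Gm21955, which form a family of 2 and were named after their values were seen, summed to group means of 18.2 to 62.0 CPM. Dctn3, a dynactin subunit, averaged 4.28 to 12.6 CPM over the 8 groups, with no call in any of the 8 comparisons.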

How the data were processed

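Nuclear RNA of 32 libraries was sequenced as single reads of 75 bases after NuGEN Ovation V2 amplification, a kit that does not mark strand. Values deposited by the authors are expected counts, one unscaled table with a row for each Ensembl identifier. GRCm38 and the programs STAR 2.5.2, RSEM 1.3.0 and DESeq2 1.10.1 are listed, without roles, per the submitters' processing notes; the annotation release is not given in the sources used here. Positions and symbols came from GENCODE M21, which matched 51719 of 51912 identifiers. Members and gene lists were chosen with earlier results of these data known.

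After rounding, edgeR (4.0.16, under R 4.3.3) was run across the whole table: genes kept by filterByExpr, TMM factors, 1 mean a group, quasi-likelihood tests and Benjamini-Hochberg values with a threshold of 0.05. Each sort had a fit of its own, and all 32 libraries were used for the sort and the interaction. The SE of a fold is the absolute log2 fold divided by the square root of the quasi-likelihood F. It too depends on the prior count where a group is at 0. Simulated data were used to try the sort and segment contrasts, and not the facility contrasts or the interaction. A first bound on recovered changes was not met for the segments in non-neuronal nuclei and was then replaced. Alternatives were DESeq2, limma-voom, no filter, thinning, leaving out libraries, family sums and a replicate block. A count of 0 allows up to 3 counts over a group, 0.122 to 0.22 CPM, which covers counting error only. Named were Gm13302, protein-coding members with a group mean of 5 CPM or more, the chemokine, Il11ra and Fam205 families, and the 8 largest and 8 smallest facility folds of each sort; genes named outside this rule are marked as such, and some results are not reported here.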

Additional observations from a re-analysis of the deposited data

Results flagged for a closer look

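Of 187 groups of 4 libraries with a mean of at least 1 CPM for a named member, 22 held a library far from the other 3. Chance gives about 1 in 20 for independent and normally spread values. Sparse counts are not so spread and copies that share reads are not independent, so no excess is read from the 22. In Bern non-neuronal SI, 1 library (replicate 3) was the highest for Galt (79.6 CPM), Fam219a (25.3 CPM), and Gm3892 and Gm10593 (17.1 CPM each), replicate 2 for Gm20878 (28.5 CPM) and replicate 1 for Il11ra2 (5.14 CPM). In Bern non-neuronal colon the highest were Cntfr (28.5 CPM), Gm2163 (15.9 CPM) and Gm21541 (13.5 CPM), and Vcp had a lowest library of 29.4 CPM. In Crick non-neuronal colon the highest were Gm21541 (22.7 CPM), Dctn3 (21.6 CPM), Gm10600 (14.8 CPM), and Fam205a2 and Fam205a3 (7.13 CPM each). In Crick non-neuronal SI, Vcp had a lowest library of 35.0 CPM. In Bern neuronal SI the highest were 1110017D15Rik (27.9 CPM), Fam205c (6.28 CPM) and Gm21093 (4.98 CPM), in Bern neuronal colon 1110017D15Rik (9.47 CPM) and Gm12395 (4.60 CPM), and in Crick neuronal SI Fam205a1 (2.68 CPM).

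The segment difference differed between neuronal and non-neuronal nuclei, by an interaction term, for Cntfr (-4.34, log2), Gm13304 (-7.09) and Ccl21a (-7.39). Ccl21a had 1 group at 0, so the size of its term depends on the prior count of the fit. Cntfr was at 0 in Bern non-neuronal SI in all libraries but replicate 1. Leaving out replicate 4 of Bern neuronal SI for Ccl21a, or replicate 1 of that group for Gm13304, left all remaining libraries of that group at 0 and ended the call.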

How the results depend on the processing

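The number of members called was recomputed under each alternative. With DESeq2 it was 10 in neuronal colon (Bern against Crick), 7 in non-neuronal colon, 20 between the sorts, 2 and 8 between the segments in neuronal and non-neuronal nuclei, and 5 for the interaction. With no filter the interaction gave 5. With each family summed before the fit, Bern against Crick gave 2 in neuronal colon, 3 in neuronal SI, 1 in non-neuronal colon and 2 in non-neuronal SI, and the segments gave 2 in non-neuronal nuclei. Without the 6 libraries that stand apart, non-neuronal colon gave 0 and non-neuronal SI 2. Thinning gave 4 in non-neuronal SI. The cause of these moves was not tested. Leaving out 1 library of the groups compared gave 4 to 8 in neuronal colon, 4 to 5 in neuronal SI, 2 to 3 in non-neuronal colon and 2 to 7 in non-neuronal SI, 11 to 17 between the sorts, 1 to 2 and 3 to 5 between the segments in neuronal and non-neuronal nuclei, and 2 to 4 for the interaction.

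The labels do not say that replicate numbers pair the libraries. Deviations of same-numbered neuronal and non-neuronal libraries correlated above 0.1 in 0 of 8 Bern and 6 of 8 Crick pairs, and 12 of 16 libraries at each facility correlated best with their own number, a hint from the data of a pairing. Colon and SI pairs correlated above 0.1 in 2 of 16. With the replicate block, 13 members were called between the sorts, 1 and 3 between the segments in neuronal and non-neuronal nuclei (Ccl27a was lost, edgeR adjusted p = 0.0539), and 3 for the interaction. The block could not be fitted for Bern against Crick, since a replicate lies within 1 facility.

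Of 873 refits of 26 tested folds past the threshold, 853 kept direction and call, 20 lost the call and 0 reversed. Of 309 refits of 24 facility folds, 288 moved by less than 1 SE and 21 by more. Folds of named members that did not pass are not printed here: of their refits, 135 of 3637 changed sign in the tested comparisons and 83 of 1344 between facilities. Family sums were fitted with the reported settings only. limma-voom moved the median of all genes by -0.17 to -0.71 (log2) between facilities. Reads that map to several copies and the low Bern depth limit what single copies can show.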
